A study of Mus musculus with 14 samples.

Results

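Basement membrane genes were followed through the differentiation of mouse embryonic stem cells (ESCs) into extraembryonic endoderm (XEN) cells. The 10 genes are the laminin chains Lama1, Lama5, Lamb1 and Lamc1, the collagen IV chains Col4a1 and Col4a2, the nidogens Nid1 and Nid2, the perlecan gene Hspg2, and Sparc. They were taken by symbol, and all 10 of 10 are among the 23174 rows of the deposited table. The series asks how Zfp281, a zinc finger transcription factor, bears on this differentiation. Its 14 polyA RNA-seq libraries come from cell lines of 129S1/SVImJ background, or 129S1 for XENB1.

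There were 4 lines, each with 1 library at each of 3 stages: WT3 is wild type, KO2.6 and KO3.34 are knockouts of Zfp281, and Rescue3.34 is KO3.34 carrying restored Zfp281. ESC is the undifferentiated state, grown without feeders on gelatin. Stage cXENp1 followed 48 hours of activin A at 10 ng/mL together with retinoic acid at 0.01 µM in XEN medium. Stage cXENp3 came after a further passage on feeder fibroblasts and a return to gelatin. XENB1 and XEN5 are established wild-type XEN lines kept in fibroblast-conditioned medium, with 1 library each. WT3 and Rescue3.34 are called Zfp281-present below. The cell line field of KO2.6 gives another number than its title, and the title is used. No label says that any library is a separate culture of one line, so the replicates are lines, and p-values measure the spread between these libraries.

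A basement membrane is a thin sheet of matrix under epithelia and endoderm. Laminin trimers of an alpha, a beta and a gamma chain form one network and collagen IV trimers another, and nidogens and perlecan join them. In the early mouse embryo, parietal endoderm, a derivative of the extraembryonic endoderm, is known for laying down Reichert's membrane, a very thick sheet rich in laminin, collagen IV and SPARC, a collagen-binding matrix protein.

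In these libraries, the laminin beta chain gene Lamb1, both nidogen genes and Hspg2 were higher in the knockout lines than in the Zfp281-present lines at cXENp3, and higher in the XEN lines than in ESCs. Lama5 did not pass the test in either comparison. The other 5 members, Lama1, Lamc1, Col4a1, Col4a2 and Sparc, are listed at exactly 0 in both knockout libraries at cXENp3 and in both XEN lines, beside values of up to 852 FPKM elsewhere. Those zeros are treated as possible failed estimates and not as loss of expression, and no fold change or test is given across them.

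Promoter windows were examined because the members' levels moved together in part. RefSeq (GRCm38.p6) start sites gave a window of 250 bases before and 50 bases from the start for 7 of the 10 members: Lama5, Lamb1, Col4a1, Col4a2, Nid1, Hspg2 and Sparc. Col4a1 and Col4a2 are neighbours on chromosome 8 that run in opposite directions, and their start sites lie 21 bases apart. The starts are 11312826 for Col4a1, on the minus strand, and 11312805 for Col4a2, on the plus strand. By these starts the genes overlap, and the bases before each start lie inside the other gene. Their sequences are shown from 250 bases before the start through 30 bases from it, 5′ to 3′ on each gene's own strand. Capitals mark the 38 bases that both printed windows hold, each as the reverse complement of the other (Col4a1 at chr8:11312797-11313076, minus strand, and Col4a2 at chr8:11312555-11312834, plus strand).
Col4a1: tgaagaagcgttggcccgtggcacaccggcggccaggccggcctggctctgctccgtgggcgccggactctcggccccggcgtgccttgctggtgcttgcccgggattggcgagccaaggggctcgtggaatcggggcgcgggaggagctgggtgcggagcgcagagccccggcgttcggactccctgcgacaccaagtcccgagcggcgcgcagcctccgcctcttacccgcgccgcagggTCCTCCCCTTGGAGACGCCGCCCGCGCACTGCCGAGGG
Col4a2: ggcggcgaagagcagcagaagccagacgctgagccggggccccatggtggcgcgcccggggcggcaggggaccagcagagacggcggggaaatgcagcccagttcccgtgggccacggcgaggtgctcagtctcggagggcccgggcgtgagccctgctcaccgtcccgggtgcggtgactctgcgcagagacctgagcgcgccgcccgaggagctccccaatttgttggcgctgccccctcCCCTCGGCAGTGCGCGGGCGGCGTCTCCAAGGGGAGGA

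A G-rich core that ZFP281 is known to bind, GGGGGAGG, was sought on both strands, since the study perturbs this factor. It occurred in 2 of the 7 windows, those of Lama5 and Nid1, against 8.29% of 32851 promoter windows of the same length. Both matches read CCTCCCCC on the gene's strand, the reverse complement of the core, and are in capitals (Lama5 at chr2:180225830-180226109, minus strand, and Nid1 at chr13:13437352-13437631, plus strand). A match is a description of letters and not a binding site.
Lama5: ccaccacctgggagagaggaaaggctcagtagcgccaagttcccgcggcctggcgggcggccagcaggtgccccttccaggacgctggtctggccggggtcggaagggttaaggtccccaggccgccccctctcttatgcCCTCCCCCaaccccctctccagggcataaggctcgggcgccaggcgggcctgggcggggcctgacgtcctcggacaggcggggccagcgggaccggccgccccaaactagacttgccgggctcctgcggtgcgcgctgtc
Nid1: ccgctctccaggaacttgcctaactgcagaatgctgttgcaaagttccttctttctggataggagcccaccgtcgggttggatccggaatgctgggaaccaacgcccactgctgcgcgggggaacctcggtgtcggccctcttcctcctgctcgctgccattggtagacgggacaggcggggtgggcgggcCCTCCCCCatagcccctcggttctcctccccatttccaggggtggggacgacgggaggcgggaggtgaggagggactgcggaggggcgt

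Letters bound by GATA factors (AGATAA, or that word with T first, G last, or both) were in none of the 7 windows, against 29.8% of all windows. The same was true of the retinoic acid receptor letters AGGTCA (16.3% of all windows), the TATA letters TATAAA (13.6%) and the AP-1 letters TGANTCA (7.81%). The GC box GGGCGG was in 6 of 7, against 35.7%. The letters CCAAT were in 4 of 7, Col4a1, Col4a2, Lamb1 and Nid1, against 37.4%. All motifs were sought on both strands, the windows of Col4a1 and Col4a2 overlap, and the 7 windows are 55.3% (Sparc) to 74.0% (Col4a1) GC.

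The deposited values are FPKM (fragments scaled for transcript length and for the size of the library), so a level can be compared between genes. The table holds no counts and the depth is unknown. The targeted gene Zfp281 had 25.1 to 38.6 FPKM in the 6 Zfp281-present libraries, at most 3.96 FPKM in the 6 knockout libraries, and 10.6 and 12.5 FPKM in XENB1 and XEN5. The endoderm labels were checked with 7 extraembryonic endoderm markers (Gata4, Gata6, Sox17, Sox7, Foxa2, Pdgfra and Dab2). All 7 reached 1 FPKM in the 2 XEN lines and in both knockout libraries at cXENp3, with summed levels of 928 to 1305 FPKM. In WT3 and Rescue3.34 at cXENp3 only 3 of 7 did, with sums of 5.08 and 13.3 FPKM, so the cXEN label of these 2 libraries is not matched by the markers. Their summed level of 5 pluripotency markers was 2654 and 1631 FPKM. That sum was 327.5 FPKM in KO3.34 and 65.9 FPKM in KO2.6 at cXENp3, above the 13.1 FPKM of XENB1 and 0.16 FPKM of XEN5. The bulk values cannot tell fewer cells of a type from less RNA per cell.

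**Figure D1:**
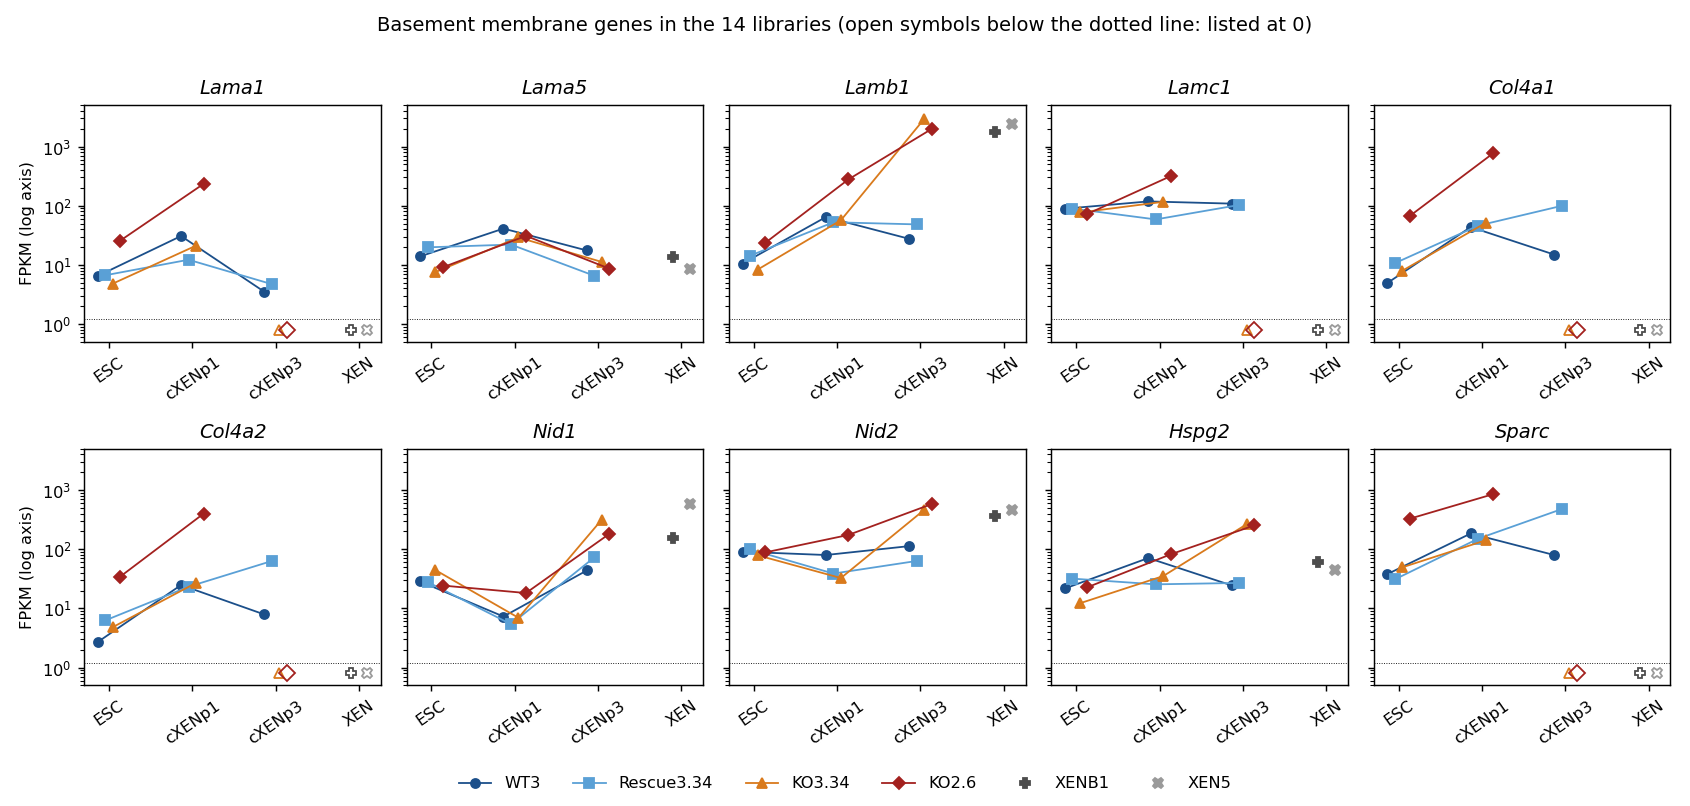
FPKM (log axis) of the 10 members by stage, 1 symbol per library, with lines joining the libraries of 1 cell line; open symbols under the dotted line stand for values listed at 0. Lamb1 reaches 1768 to 2933 FPKM in the knockout lines at cXENp3 and in the XEN lines, 5 members are listed at 0 in those 4 libraries, and KO2.6 is above the other lines for 9 of 10 members at cXENp1. The share of all genes for which KO2.6 stands so was not computed.

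Lamb1 (XLOC_004134, mm9 chromosome 12, 31950159 to 32014504) encodes the beta-1 chain, which most early embryonic laminins contain. In ESCs the Zfp281-present lines WT3 and Rescue3.34 had 10.5 and 14.3 FPKM, and the knockouts KO3.34 and KO2.6 had 8.30 and 23.4 FPKM. At cXENp1 the values were 64.4, 52.5, 56.8 and 278.3 FPKM in the same order of lines, which is kept below. At cXENp3 WT3 and Rescue3.34 stood at 27.6 and 48.4 FPKM, KO3.34 and KO2.6 at 2933 and 1987 FPKM. All 4 lines were higher at cXENp1 than as ESCs, and at cXENp3 the 2 genotype groups lay far apart with no overlap. XENB1 had 1768 FPKM and XEN5 2386 FPKM, so that at cXENp3 KO2.6 lay between the XEN lines and KO3.34 above both. Ranked by FPKM within a library, Lamb1 was gene 6201 in WT3 ESCs and gene 8 in KO3.34 at cXENp3.

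The 2 other laminin chain genes of the classical trimer could not be followed to that stage. Lamc1 (XLOC_001056, chromosome 1, 155066052 to 155179916), the gamma-1 chain, had 89.0, 89.6, 76.9 and 72.8 FPKM in ESCs. Its values at cXENp1 were 118.2, 58.7, 116.4 and 317.0 FPKM, and 108.5 and 103.0 FPKM at cXENp3 in the Zfp281-present lines. Apart from KO2.6 at cXENp1, Lamc1 kept within 58.7 to 118.2 FPKM in the libraries where it is not listed at 0. Lama1 (XLOC_008633, chromosome 17, 68046605 to 68171985), the alpha-1 chain of early embryonic laminin, had 6.49, 6.67, 4.82 and 25.7 FPKM in ESCs. It stood at 30.8, 12.2, 21.2 and 234.0 FPKM at cXENp1, and at 3.50 and 4.72 FPKM in WT3 and Rescue3.34 at cXENp3. Each line was above its own ESC value at cXENp1, and the 2 Zfp281-present lines were back below it at cXENp3.

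Lama5 (XLOC_012513, chromosome 2, 179911078 to 179960564), the alpha-5 chain that most epithelia use, had 13.9, 19.8, 7.51 and 9.08 FPKM in ESCs, 41.1, 22.0, 29.1 and 30.9 FPKM at cXENp1, and 17.5, 6.55, 11.2 and 8.65 FPKM at cXENp3. XENB1 and XEN5 had 13.8 and 8.42 FPKM. Lama5 was thus highest at cXENp1 in every line, and the genotype groups overlapped at cXENp1 and cXENp3 but not as ESCs, where the knockouts were lower. Over the 10 libraries with both values, the ratio of Lama1 to Lama5 ran from 0.20 in WT3 at cXENp3 to 7.56 in KO2.6 at cXENp1. It was above 1 in KO2.6 as ESCs (2.83) and at cXENp1, and below 1 in the other 8 libraries.

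Col4a1 (XLOC_020275, chromosome 8, 11198423 to 11312826) and Col4a2 (XLOC_019691, chromosome 8, 11312829 to 11449287) encode the 2 chains of the most common collagen IV trimer. Col4a1 had 4.94, 10.7, 7.98 and 67.3 FPKM in ESCs, and 43.6, 46.0, 51.3 and 771.7 FPKM at cXENp1. Col4a2 had 2.70, 6.25, 4.81 and 34.4 FPKM in ESCs, and 24.8, 23.2, 26.9 and 398.5 FPKM at cXENp1. KO2.6 stood far above the other 3 lines both as ESCs and at cXENp1. At cXENp3 WT3 had 15.0 FPKM of Col4a1 and 7.88 FPKM of Col4a2, and Rescue3.34 had 99.4 and 63.2 FPKM.

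The levels of the 2 collagen genes kept nearly 1 ratio. Col4a1 over Col4a2 was 1.82 ± 0.14 (mean ± SD, 10 libraries), with a lowest value of 1.57 and a highest of 1.98, while Col4a1 itself spanned a 156-fold range. Assembled collagen IV of this type is known to hold more alpha-1 than alpha-2 chains. By comparison, Lamb1 over Lamc1 ran from 0.11 to 0.90 over the same 10 libraries, and Nid2 over Nid1 from 0.82 to 11.0 over 14.

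**Figure D2:**
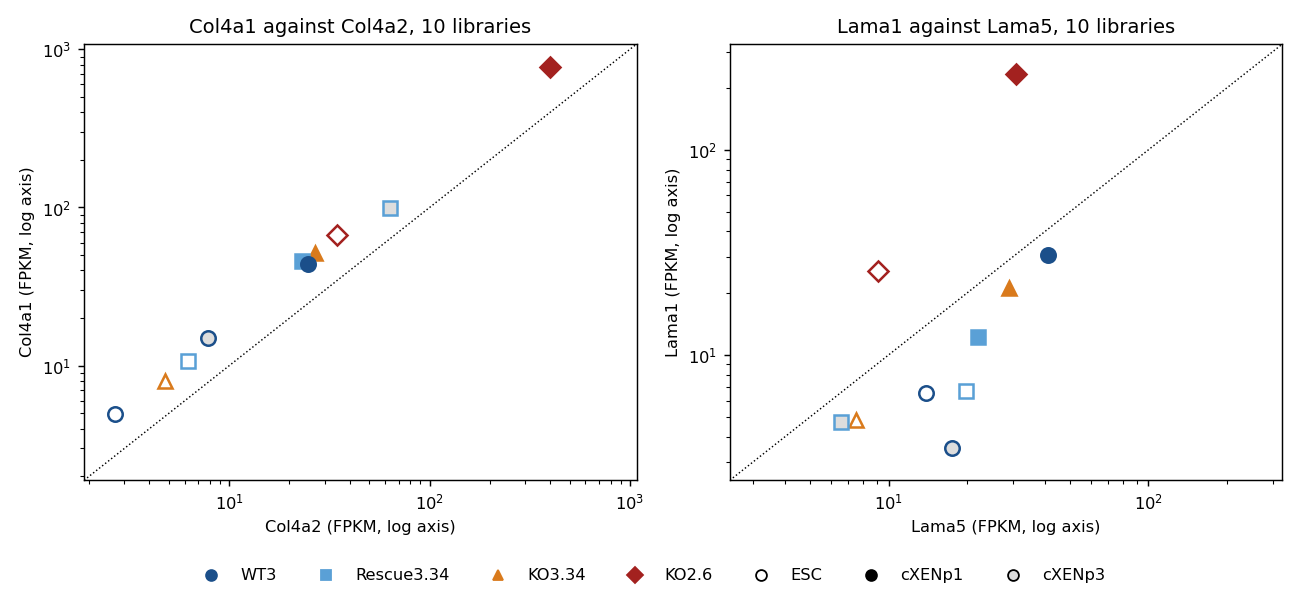
Left, Col4a1 against Col4a2, and right, Lama1 against Lama5, in FPKM on log axes; each symbol is 1 of the 10 libraries where neither gene is listed at 0, colour and shape give the line, filling the stage, and the dotted line marks equal levels. Col4a1 stays 1.57 to 1.98 times Col4a2 across the range, while Lama1 over Lama5 runs from 0.20 to 7.56.

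Sparc (XLOC_003401, chromosome 11, 55208003 to 55233582) had 37.9, 30.9, 49.4 and 328.0 FPKM in ESCs. At cXENp1 it had 184.2, 150.6, 141.4 and 851.6 FPKM. At cXENp3 WT3 had 79.8 FPKM and Rescue3.34 474.8 FPKM. As with collagen IV, KO2.6 stood above the other 3 lines at both early stages and Rescue3.34 above WT3 at cXENp3. The summed level of 9 feeder fibroblast markers in that Rescue3.34 library was 1255 FPKM, with all 9 at 1 FPKM or more, against 35.8 FPKM and 5 of 9 in WT3. Fibroblasts make SPARC and collagen IV too, and the part of feeder cells in these values was not tested. In the 4 libraries where Sparc is listed at 0 the fibroblast sums were 277 to 634 FPKM. These include XENB1 (634 FPKM) and XEN5 (552 FPKM), which are kept in conditioned medium, so the sum may not mark feeder cells alone.

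Nid1 (XLOC_004866, chromosome 13, 13529869 to 13604542) and Nid2 (XLOC_005772, chromosome 14, 20570479 to 20643045) encode the linkers between the laminin and collagen networks. Nid1 had 28.5, 27.9, 44.6 and 24.3 FPKM in ESCs, 7.27, 5.40, 6.93 and 18.1 FPKM at cXENp1, and 43.7, 72.7, 316.3 and 181.5 FPKM at cXENp3. XENB1 had 151.8 FPKM and XEN5 569.7 FPKM. Nid1 was lowest at cXENp1 and highest at cXENp3 in each of the 4 lines, whereas Lama5 was highest at cXENp1. Nid2 had 90.5, 99.2, 78.9 and 88.1 FPKM in ESCs, 79.7, 38.7, 32.5 and 174.1 FPKM at cXENp1, and 112.7, 63.2, 462.0 and 579.5 FPKM at cXENp3. The XEN lines had 360.5 and 465.6 FPKM. The knockout libraries at cXENp3 lay within or above that range, and the Zfp281-present ones below it.

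Hspg2 (XLOC_014154, chromosome 4, 137024718 to 137126545), the core protein of the heparan sulfate proteoglycan perlecan, had 21.7, 31.8, 12.2 and 22.7 FPKM in ESCs. Its values were 70.9, 25.5, 35.2 and 82.0 FPKM at cXENp1 and 24.4, 26.9, 264.1 and 251.7 FPKM at cXENp3. XENB1 had 60.8 FPKM and XEN5 44.9 FPKM. Of the 5 members without zeros, Hspg2 was the one whose 2 knockout libraries at cXENp3 both lay several times above both XEN lines.

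The zeros form a block. In XENB1, XEN5 and both knockout libraries at cXENp3, the same 5 members are listed at 0, and in the other 10 libraries their lowest values are 3.50 (Lama1), 58.7 (Lamc1), 4.94 (Col4a1), 2.70 (Col4a2) and 30.9 FPKM (Sparc). The rows of the table run in 4 stretches of ascending identifiers, and the third holds 6 rows: these 5 genes and Hsp90ab1. Hsp90ab1, a chaperone gene that cells in general express, is listed at 0 in the 6 Zfp281-present course libraries and at 1130 to 3624 FPKM in the other 8. Over all rows, 28 genes are at 0 in exactly those 4 libraries. Besides the 5 members, the highest value any of them reaches is 6.81 FPKM (Wfdc10). The partner chain gene Lamb1 had 1768 to 2933 FPKM in the 4 libraries, and the collagen chaperone gene Serpinh1 2065 to 4092 FPKM. What the levels of the 5 members were in the 4 libraries was not tested, since the table holds no other estimate.

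Each comparison below was made with limma on log2(FPKM + 1), with Benjamini-Hochberg adjustment over all genes tested and a call at an adjusted p under 0.05. A difference is on that log2 scale, which understates the change of low genes. The comparisons share libraries, and the ESC libraries enter several. Among those of the course, cXENp1 against ESC has its own estimate of the spread, and the others share 1.

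The XEN lines were compared with the 4 ESC libraries to describe the endpoint. Of 12372 genes, 41.9% were called. All 10 members were kept by the filter on low values, and 5 of them are listed at 0 in the XEN lines and were not counted. Among the other 5, Lamb1, Nid1, Nid2 and Hspg2 were called higher. Lamb1 rose by 7.18 (SE 0.38, adjusted p 1.66e-05), Nid1 by 3.23 (SE 0.49, adjusted p 0.00161), Nid2 by 2.19 (SE 0.20, adjusted p 0.000139) and Hspg2 by 1.28 (SE 0.36, adjusted p 0.0228). Lama5 differed by -0.11 (SE 0.40, adjusted p 0.844). The median difference over the 5 was 2.19, against -0.02 over all genes tested. Each of the 4 called members was higher in both XEN lines than in any ESC library, and the share of all genes that are so was not computed. Without XENB1, or without XEN5, 3 of the 5 were called.

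Stage cXENp1 was compared with ESC across the 4 lines, with the line as a block in a fit of the 12 course libraries, to describe the response to retinoic acid and activin A. Of 13191 genes, 28.5% were called, and of the 10 members 2. Lama5 rose by 1.28 (SE 0.31, adjusted p 0.0160), higher in 4 of 4 lines, and Nid1 fell by 1.73 (SE 0.45, adjusted p 0.0210), lower in 4 of 4. The Lama5 call was lost without KO2.6 (adjusted p 0.0552), KO3.34 (0.0942) or WT3 (0.0647), and that of Nid1 without KO3.34 (0.0707) or Rescue3.34 (0.11). Lama1, Lamb1, Col4a1, Col4a2 and Sparc were also higher at cXENp1 in 4 of 4 lines, by 1.84 (Sparc) to 2.74 (Col4a1), with adjusted p-values of 0.0962 to 0.457. Hspg2 differed by 1.15 and was higher in 3 of 4 lines, Lamc1 by 0.63 in 3 of 4, and Nid2 by -0.45, higher in 1 of 4. The standard errors of this fit take in how the lines part at cXENp3 and the zeros listed there. With the 8 ESC and cXENp1 libraries alone and the line as a block, an alternative added after seeing the data, the differences are the same and 8 members were called. In that fit Lama1, Lama5, Lamb1, Col4a1, Col4a2, Hspg2 and Sparc were higher (adjusted p from 0.000145 for Col4a1 to 0.0237 for Hspg2) and Nid1 lower, beside 5834 of 12724 genes called.

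Library descriptions begin with JH for 3 of the ESC libraries, all but that of KO2.6, and with XH for the remaining 11. What these letters mark is not stated, and their effect can be told apart from the ESC stage through KO2.6 only. Both XEN lines are XH, so the prefix also runs largely with XEN against ESC, where no prefix term was fitted. Among the ESC libraries alone, KO2.6 and the XH prefix cannot be told apart. With the prefix as a term, 0 of 10 members were called at cXENp1 against ESC, beside 439 of 13191 genes. Within KO2.6, where both libraries are XH, the level at cXENp1 over that in ESCs was 9.11 for Lama1, 3.41 for Lama5, 11.9 for Lamb1, 11.5 for Col4a1, 2.60 for Sparc, 0.75 for Nid1 and 1.98 for Nid2, with no replicate. The ratio was 4.35 for Lamc1, 11.6 for Col4a2 and 3.61 for Hspg2. For 9 of the 10 members this is the direction of the difference over the 4 lines, and for Nid2 it is the opposite one. KO2.6 is itself 1 of the 4 lines, so a shared direction is partly built in. The share of all genes with a shared direction was not computed.

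KO and Zfp281-present lines were compared within each stage in 1 fit of 6 groups of 2 libraries, to ask whether loss of Zfp281 moved the members. As ESCs, 1.97% of 13191 genes were called and 0 of 10 members. Their differences ran from -0.93 (Lama5) to 1.87 (Sparc), with adjusted p-values of 0.236 to 0.942. An unadjusted limma p under 0.05 was found for 1 member, beside 2762 of 13191 genes. At cXENp1, 0.485% of genes were called and again 0 of 10 members. Differences there ran from -0.0068 (Lama5) to 2.13 (Col4a1), with adjusted p-values of 0.312 or more. An unadjusted limma p under 0.05 was found for 1 member, beside 1486 of 13191 genes. Without KO3.34 more members were called at both stages, and so were more of all genes. KO2.6 then stands alone for the knockout and is assumed to vary like the other groups.

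The 2 knockout lines were unlike each other at the early stages. At cXENp1 KO2.6 was above the highest of the other 3 lines for 9 of 10 members, all but Lama5, with a median ratio of 3.50 over the 10 and a highest of 15.1 (Col4a1). As ESCs it was above the others for 5 of 10: Lama1, Lamb1, Col4a1, Col4a2 and Sparc. KO3.34 at cXENp1 was above both Zfp281-present lines for 2 of 10. The share of all genes that stand in these ways was not computed, so these counts may not be particular to the members. KO2.6 is also the only ESC library with the XH prefix. Endoderm markers stood with KO2.6 in the same libraries. The 7 extraembryonic endoderm markers summed to 46.7 FPKM in KO2.6 ESCs, against 1.00 to 5.69 FPKM in the other ESC libraries, and to 370.0 FPKM at cXENp1, against 35.7 to 47.9 FPKM. The summed parietal endoderm markers (Thbd, Plat, Snai1, Pth1r and Cited1) at cXENp1 were 196.1 FPKM in KO2.6 and 36.0 to 88.7 FPKM in the other lines. The 6 visceral endoderm markers (Afp, Ttr, Apoa1, Apob, Hnf4a and Cubn) summed to 126.5 FPKM in KO2.6 at that stage, against 4.57 to 12.9 FPKM. Whether the members' levels follow the endoderm content of the culture was not tested.

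At cXENp3 the knockout lines parted from the Zfp281-present lines. Of 13191 genes 41.9% were called, and of the 5 members without zeros 4 were called, all higher in the knockout lines. Lamb1 was higher by 6.01 (SE 0.66, adjusted p 0.000258), from 38.0 ± 14.7 to 2460 ± 669 FPKM (mean ± SD, n = 2 lines each). Hspg2 was higher by 3.28 (SE 0.50, adjusted p 0.00105), from 25.7 ± 1.73 to 257.9 ± 8.77 FPKM. Nid2 was higher by 2.60 (SE 0.63, adjusted p 0.00969) and Nid1 by 2.07 (SE 0.45, adjusted p 0.00598). For each of the 4, both knockout libraries exceeded both Zfp281-present ones. The share of all genes that part in this way was not computed. Lama5 differed by -0.12 (SE 0.41, adjusted p 0.832). The median over the 5 was 2.60, against 0.01 over all genes tested. Lamb1 and Hspg2 were called with any 1 line left out. Nid2 was not without Rescue3.34 (adjusted p 0.0937) or WT3 (0.0674), nor Nid1 without WT3 (0.126), which left 2 of 5 members called without WT3.

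**Figure D3:**
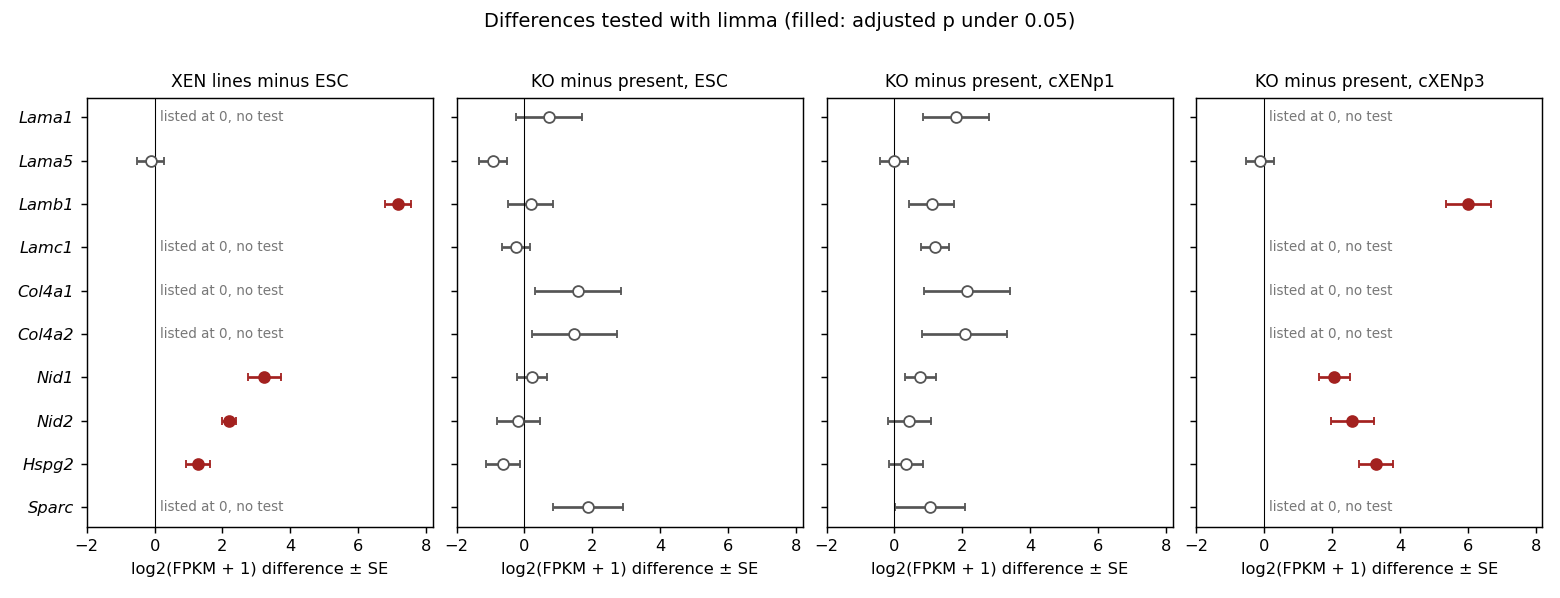
Differences in log2(FPKM + 1) with their standard errors for the XEN lines minus ESCs and for KO minus Zfp281-present lines at the 3 stages, 1 row per member; filled symbols have an adjusted p under 0.05 by limma. The same 4 members are filled in the first and last panels, none is in the 2 middle panels, and 5 members have no test where they are listed at 0.

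The change from cXENp1 to cXENp3 was then taken within each genotype. In the knockout lines 21.3% of genes were called, and all 5 members without zeros. Nid1 rose by 4.29 (SE 0.45, adjusted p 0.000284), Lamb1 by 4.25 (SE 0.66, adjusted p 0.00202), Nid2 by 2.76 (SE 0.63, adjusted p 0.0139) and Hspg2 by 2.24 (SE 0.50, adjusted p 0.0123). Lama5 fell by 1.51 (SE 0.41, adjusted p 0.0279). Without KO3.34, 2 of the 5 were called. In the Zfp281-present lines 10.9% of genes were called and 1 of 10 members, Nid1, which rose by 2.98 (SE 0.45, adjusted p 0.00378). Lama5 differed by -1.40 there (SE 0.41, adjusted p 0.0572). Without WT3 or without Rescue3.34, 0 of 10 were called.

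The difference between these 2 changes was tested as an interaction, for which 11.4% of genes were called. Of the 5 members, Lamb1 was called, with a change larger by 4.90 in the knockout lines (SE 0.94, adjusted p 0.0148), and so was Hspg2, larger by 2.95 (SE 0.71, adjusted p 0.0293). Nid2 differed by 2.16 (adjusted p 0.128), Nid1 by 1.31 (adjusted p 0.187) and Lama5 by -0.12 (adjusted p 0.907). Nid1 thus rose in both genotypes, and a difference between its 2 rises was not shown. Without WT3, or without Rescue3.34, 0 of the 5 were called, 1 without KO3.34 and 4 without KO2.6.

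The Zfp281-present lines at cXENp3 were set against the same lines as ESCs. Here 1.3% of genes and 0 of 10 members were called. By limma 2 members had an unadjusted p under 0.05, beside 2405 of 13191 genes. The description prefix runs fully with stage here, JH for both ESC libraries and XH for both at cXENp3. Differences ran from -0.58 (Lama1) to 2.48 (Sparc), with adjusted p-values of 0.242 to 0.988. Without KO2.6, or without KO3.34, which changes the shared spread, 1 member was called.

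Finally, the knockout lines at cXENp3 were compared with the XEN lines, where 4.12% of 13386 genes were called and 1 of 5 members. Hspg2 was higher in the knockout lines by 2.28 (SE 0.48, adjusted p 0.0269), higher in 2 of 2. Lamb1 differed by 0.23 (SE 0.63), Nid2 by 0.34 (SE 0.61), Nid1 by -0.30 (SE 0.59) and Lama5 by -0.12 (SE 0.42), with adjusted p-values of 0.818 to 0.911. These intervals are wide, and a p that misses the threshold does not show equal levels. Without KO2.6, Rescue3.34, WT3, XENB1 or XEN5, 0 of 5 were called.

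The rest of the basement membrane pathway was read from 6 lists, at cXENp3 between the genotypes and between the XEN lines and ESCs, both with 41.9% of all genes called. Collagen folding and secretion held the largest share of calls at cXENp3, where 10 of its 11 tested genes were higher in the knockout lines. The list's median was 3.33, and 8 to 11 were called with any 1 line left out. P4ha2, a prolyl 4-hydroxylase subunit, was higher by 5.19 (SE 0.42, adjusted p 6.38e-05). Serpinh1, the collagen chaperone HSP47, was higher by 4.68 (SE 0.75, adjusted p 0.00134), from 60.9 and 281.9 FPKM in the Zfp281-present lines to 4092 and 2815 FPKM in the knockouts. Leprel1, a prolyl 3-hydroxylase, was higher by 3.87 (SE 0.42, adjusted p 0.000247). In the XEN lines all 9 tested genes of the list were higher than in ESCs, among them Serpinh1 by 5.72 (SE 0.42), Loxl2, a lysyl oxidase-like enzyme, by 5.41 (SE 0.34) and P4ha2 by 5.24 (SE 0.37), with adjusted p-values of 2.92e-05 to 5.95e-05. Leprel1 and Lox, listed at 0 in ESC libraries, were left out there, and Mia3 did not pass the filter.

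Among the other laminin chains, the beta-2 chain gene Lamb2 was higher in the knockout lines at cXENp3 by 2.31 (SE 0.32, adjusted p 0.000755), and Lama4, an alpha chain, by 1.12 (SE 0.34, adjusted p 0.0250). Lama4 was not called without WT3 or without KO2.6. In ESCs, Lamb1 over Lamb2 ran from 1.01 (WT3) to 3.10 (KO2.6). It was 33.5 to 72.5 in the knockout lines at cXENp3 and the XEN lines, where Lamb2 thus lay well under Lamb1. Lamb2 and Lama4 were also higher in XEN lines than in ESCs, by 1.89 and 1.74. With either XEN line left out, Lama4 no longer passed the filter and was not tested. Lama2, Lama3 and Lamc3 did not pass the filter.

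Of 3 other collagen genes tested, 1 was called at cXENp3. Col18a1, which encodes a basement membrane collagen with a heparan sulfate side chain, was lower in the knockout lines at cXENp3 by a difference of -2.63 (SE 0.33, adjusted p 0.000461) and lower in XEN lines than in ESCs by -2.75 (SE 0.33, adjusted p 0.000568). Its levels at cXENp3 were 124.5 and 86.6 FPKM in the Zfp281-present lines, and 19.0 and 13.3 FPKM in the knockouts. Col4a5 and Col15a1 were not called at cXENp3 (1 of them was without Rescue3.34) and were higher in XEN lines, by 1.58 and 0.98, though with either XEN line left out neither passed the filter. Col4a3, Col4a4 and Col4a6 did not pass the filter.

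Among 16 other basement membrane and linked matrix genes tested at cXENp3, 6 were higher and 3 lower in the knockout lines, with a median of 0.60. Tinagl1, a basement membrane protein, was higher by 6.06 (SE 1.08, adjusted p 0.00227), Ntn4, a netrin that binds laminin, by 5.75 (SE 0.39, adjusted p 2.15e-05) and Pxdn, the peroxidase that crosslinks collagen IV, by 3.42 (SE 0.43, adjusted p 0.000461). Agrn, a heparan sulfate proteoglycan like perlecan, was lower by a difference of -1.22 (SE 0.23, adjusted p 0.00320), Vwa1 by -0.86 and Egfl6 by -0.71. Without WT3 2 of the 16 were called, and without KO2.6 5. In the XEN lines 7 of 13 were higher, led by Fbln2 (7.23, SE 0.36), Tinagl1 (6.49, SE 0.42) and Ecm1 (5.11, SE 0.34), and Ntn1 was lower (-2.73, SE 0.59). Without XEN5 4 of the 13 were called, and without XENB1 5.

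Of 11 tested receptors 7 were higher in the knockout lines at cXENp3, among them Sdc4, a syndecan, by 2.06 (SE 0.43), and the integrin chains Itga3 by 1.84 (SE 0.50) and Itgav by 1.71 (SE 0.38). Their median was 1.06, and 1 of 11 was called without WT3 and 2 without Rescue3.34. In XEN lines 6 of 11 were higher, with Itgav at 2.44, Itga5 at 2.22 and Itga7 at 2.21, and 3 without XEN5. In the degradation list 7 of 11 were higher at cXENp3, with a median of 1.83, and 3 were called without WT3 or without KO2.6. They include the protease Adamts9 by 5.94 (SE 0.32, adjusted p 1.16e-05), the plasminogen activator Plat by 4.18 (SE 0.83, adjusted p 0.00382) and the inhibitor Timp2 by 3.05 (SE 0.87, adjusted p 0.0189). In XEN lines 9 of 10 were higher, with Plat at 6.53, Timp2 at 5.79 and Adamts9 at 5.75. Without XENB1 3 of the 10 were called, and without XEN5 4. Plat also stands on the parietal endoderm marker list.

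**Figure D4:**
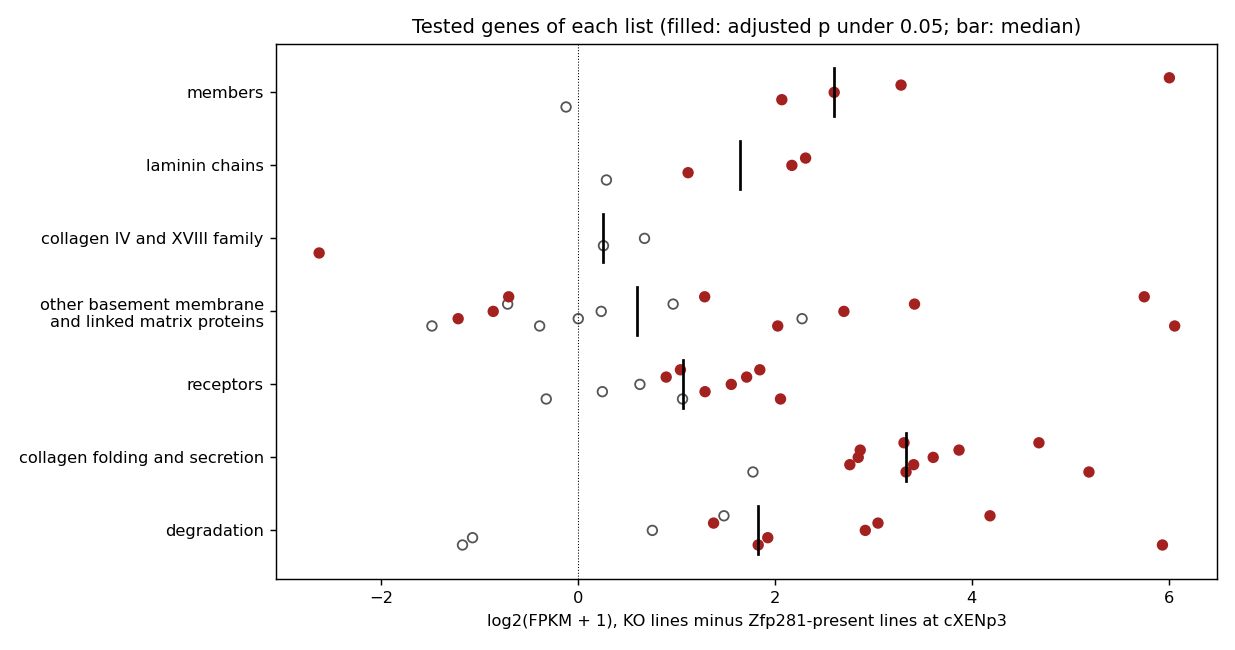
Difference in log2(FPKM + 1) between knockout and Zfp281-present lines at cXENp3 for each tested gene of the members and the 6 lists; filled points have an adjusted p under 0.05 by limma and black bars are list medians. Collagen folding and secretion lies furthest to the right as a list (median 3.33, 10 of 11 called), and Col18a1 is the lowest point at -2.63.

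Between the genotypes as ESCs and at cXENp1, no gene of these lists was called higher by limma, and 1 was called lower, in ESCs, in the list of other matrix genes. In that list 6 of 16 genes had an unadjusted limma p under 0.05 in ESCs and 3 of 16 at cXENp1. In each of the other lists it was 0 to 4 genes. Over all 13191 genes it was 2762 in ESCs and 1486 at cXENp1. From cXENp1 to cXENp3 in the knockout lines all 11 collagen folding and secretion genes rose, with a median of 3.64. In the Zfp281-present lines 0 of 11 were called, 3 of them with an unadjusted limma p under 0.05, beside 3786 of 13191 genes. The interaction was called for 8 of the 11. Of all genes, 21.3% were called for the knockout step, 10.9% for the Zfp281-present step and 11.4% for the interaction. These list counts were not computed with a line left out.

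Likeness to each of the 5 members without zeros was measured by the Pearson correlation of log2(FPKM + 1) over the 14 libraries, among 8787 genes with a mean of at least 5 FPKM and no such zeros. The libraries are shared and fall into few kinds of cell, so r is a description. Lamb1 was most like Snai1 (r = 0.993), a parietal endoderm marker of the fixed list, then Surf4 (r = 0.992) and Derl1 (r = 0.989). Nid1 was closest to Lman1 (0.954), Nid2 to Ephb3 (0.963), Hspg2 to Mlec (0.932) and Lama5 to Epb4.1 (0.881). Surf4 and Lman1 encode cargo receptors between the endoplasmic reticulum and the Golgi. Among the members themselves over the 10 libraries without zeros, Lamb1 and Col4a1 had r = 0.922, and Nid1 and Lama5 had r = -0.779.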

How the data were processed

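The authors deposited 1 table of 23174 gene rows and 14 value columns. The unit was taken as FPKM from the values: they hold decimals, none is below 0, and each library has its own total. Reads were handled with STAR 2.5.3 and Cufflinks 2.1.1 on mm9, per the submitters' processing notes, which is the source of the FPKM deposited. FPKM are estimates, and Cufflinks can fail at a locus and list 0. No steps of 1 fragment were found, so depth is unknown and no interval or floor was computed. Coordinates are those of the table (mm9, counted from 1). Sequences are RefSeq's on GRCm38.p6, and the builds were not mixed.

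Values were analysed as log2(FPKM + 1) with limma 3.58.1 (R 4.3.3; lmFit, eBayes with trend) for genes of at least 1 FPKM in 2 fitted libraries, adjusted over all genes tested. A member listed at 0 in a compared library, with 10 FPKM or more elsewhere, got no fold and no count there; zeros outside the compared groups stayed in the fit, and an alternative sets them missing. The comparison of cXENp1 with ESC used the line as a block; the other comparisons did not, and the block is an alternative there where it can be fitted; 1 line per genotype, other than KO, was available. Same-line libraries come from the same cell line, which pairs them, and their deviations from stage means correlated at 0.034 to 0.40. Pairs of libraries from different lines ran from -0.488 to 0.405. The stage means pool the genotypes, so a shared genotype also enters these correlations. Named list genes are, for the 2 comparisons shown, up to 3 called genes per list and direction with the largest difference. The members, lists and tests were chosen with earlier results of these data known. The result of 1 gene that this rule selects is not reported here. The code was tested on simulated data. Alternatives covered the pseudocount (0.1), quantile normalization, the filter (any value above 0, mean of at least 5), a limma prior with no trend, zeros as missing, blocks, the description prefix and leaving out each line. Figures used matplotlib 3.10.9 (Python 3.11.15).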

Additional observations from a re-analysis of the deposited data

Results flagged for a closer look

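In the groups of 4 lines at 1 stage, 25 member and stage groups were examined on log2(FPKM + 1) for a library far from the others. Of these, 4 had one, each time KO2.6 at cXENp1. Chance gives such a gap in about 1 in 20 groups, and the 4 genes share 1 library. How often KO2.6 stands apart in this way over all genes was not computed. Gaps and ranges were taken on log2(FPKM + 1), while the levels in brackets below are FPKM. The gap between KO2.6 and the nearest line, as a share of the range over the 4 lines, was 0.879 for Lamb1 (278.3 FPKM against 52.5 to 64.4 in the other 3), 0.945 for Col4a1 (771.7 against 43.6 to 51.3), 0.949 for Col4a2 (398.5 against 23.2 to 26.9) and 0.853 for Sparc (851.6 against 141.4 to 184.2). Gata4 stood at 91.2 FPKM in that library and at 0.92 to 4.57 FPKM in the other 3; its part in these gaps was not tested.

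The change from cXENp1 to cXENp3 differed between the knockout and the Zfp281-present lines for Lamb1, by 4.90 on the log2 scale, and for Hspg2, by 2.95, by the interaction in limma.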

How the results depend on the processing

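Depth is unknown, so no error of a single low value can be given, and each group of a genotype and stage holds 2 lines. Counts of members called moved most for cXENp1 against ESC: from 2 of 10 to 6 with the zeros missing, 7 with no replicate block, 8 with the 8 libraries alone, 0 with the prefix as a term, and 0 to 1 with a line left out. Of all genes, 3760 of 13191 were called in the main fit, 3750 of 13139 with the zeros missing and 6129 of 13191 with no replicate block. It was 5834 of 12724 with the 8 libraries alone, and 439 of 13191 with the prefix as a term. The wider standard errors with all 12 libraries come from the fit's own construction. For the prefix, the cause was not tested. Leaving out 1 line or library gave 0 to 1 of 10 for KO against Zfp281-present ESCs, 0 to 3 at cXENp1, 2 to 4 of 5 at cXENp3, 2 to 5 of 5 for KO from cXENp1 to cXENp3, 0 to 2 of 10 for Zfp281-present lines over the same step, 0 to 4 of 5 for the interaction, 0 to 1 of 10 for Zfp281-present cXENp3 against ESC, 0 to 1 of 5 for KO cXENp3 against XEN and 3 to 4 of 5 for XEN against ESC. Counts over all genes moved as well when a line or library was left out, so moved counts are not particular to the members. Quantile normalization gave 2 of 10 for the Zfp281-present step, and keeping any value above 0 gave 1 of 5 for the interaction. With line as a replicate block, the 4 other stage comparisons kept their counts (5, 1, 2 and 0). For the genotypes no pairing was used. KO3.34 and Rescue3.34 share their origin and could be paired, while WT3 and KO2.6 have no such partner here. Signs turned only for members that were not called. With the prefix as a term, cXENp1 minus ESC was -0.24 for Lamc1, 1.00 for Nid2 and -1.44 for Sparc. With a line left out, Lama5 ran from -0.44 to 0.22 for XEN against ESC, from -0.77 to 0.52 for the genotypes at cXENp3, from -0.33 to 0.10 for the interaction and from -0.45 to 0.20 for KO cXENp3 against XEN, where Nid1 ran from -1.25 to 0.65 and Lamb1 from -0.048 to 0.51. Of 428 alternative values for members given above only as ranges, 27 turned sign, and 0 of those were called.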
